A study of Mus musculus with 6 samples.

Results

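The cytosolic RNA and DNA sensing pathway was followed here through 10 genes, chosen by symbol from the 40213 genes of the deposited counts. They are the RNA sensors Rigi, Ifih1 and Dhx58, the sensor Zbp1, the adaptors Mavs and Sting1, the DNA sensor Cgas, the kinases Tbk1 and Ikbke, and the nuclease Trex1. All 10 were present in every library and passed the filter on low counts. RNA was sequenced from bone marrow-derived macrophages of C57BL/6 mice, which are macrophages grown out of flushed marrow in culture, here for 4 days with macrophage colony-stimulating factor at 25 ng/ml and 10% serum. In the MNP group, 3 samples received polystyrene micro- and nanoplastics (50 µg, with no volume stated) for 24 h, and in the control group 3 received none. No genotype or transgene is given for either group, and no age, sex or number of mice.

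Cells detect misplaced nucleic acid in the cytosol through separate sensors for RNA and for DNA. RIG-I (the product of Rigi) and MDA5 (Ifih1) bind viral-type RNA and signal through MAVS on mitochondria. The enzyme cGAS makes a cyclic dinucleotide from DNA contact, and STING on the endoplasmic reticulum binds that messenger. Both routes meet at the kinases TBK1 and IKKε (Ikbke), which activate interferon regulatory factors and so the genes of type I interferon. Several of the sensors are themselves interferon-induced genes, so their transcripts are commonly read as part of the interferon response of macrophages.

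After MNP treatment, 6 of the 10 genes fell and 0 rose. The RIG-I-like sensors Rigi, Ifih1 and Dhx58 fell 1.98-fold to 2.76-fold, Zbp1 fell 6.87-fold, and the kinase Ikbke and the nuclease Trex1 fell 1.51-fold and 1.66-fold. The adaptors Mavs and Sting1, the DNA sensor Cgas and the kinase Tbk1 did not pass the test. The test was edgeR's quasi-likelihood F test over all 12893 tested genes, called at a Benjamini-Hochberg adjusted p under 0.05, and it called 8.35% of them lower and 9.11% higher in MNP samples. The median log2 fold change was -0.66 over the 10 genes and -0.01 over all tested genes. The 10 genes were chosen with earlier results of these data known, so these contrasts are not a test of the set. A fall of at least 2-fold was found for 3 of the 10, Rigi, Dhx58 and Zbp1, and for 2.29% of tested genes. On CPM, which are counts relative to the library's total, scaled by the TMM factors (scaled CPM), the 10 genes together summed to 345 ± 16.7 in MNP samples and 534 ± 27.4 in control samples (SD, n = 3 each). These are bulk samples, so fewer cells of a type and less RNA per cell cannot be told apart.

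The libraries held 21283713 to 22700499 counts in the MNP group and 20262859 to 23042146 in the control group. Fewer genes had any count in MNP samples (18240 to 18672) than in control samples (20222 to 24062, the most in control 1). The macrophage label held in the counts, with Csf1r, the receptor for the growth factor in the medium, at 1337 and 1400 scaled CPM in MNP and control samples and Adgre1, the F4/80 antigen, at 1072 and 1349. Of 10 macrophage markers, 4 fell and 0 rose. Scaling by library totals alone changed the split of all calls to 757 higher and 1941 lower, against 1174 and 1076, and moved the median of all tested genes to -0.10 on the log2 scale. The labels do not say whether the samples were separate animals, so a p-value here reflects only how these samples scatter, and that scatter may be technical.

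**Figure D1:**
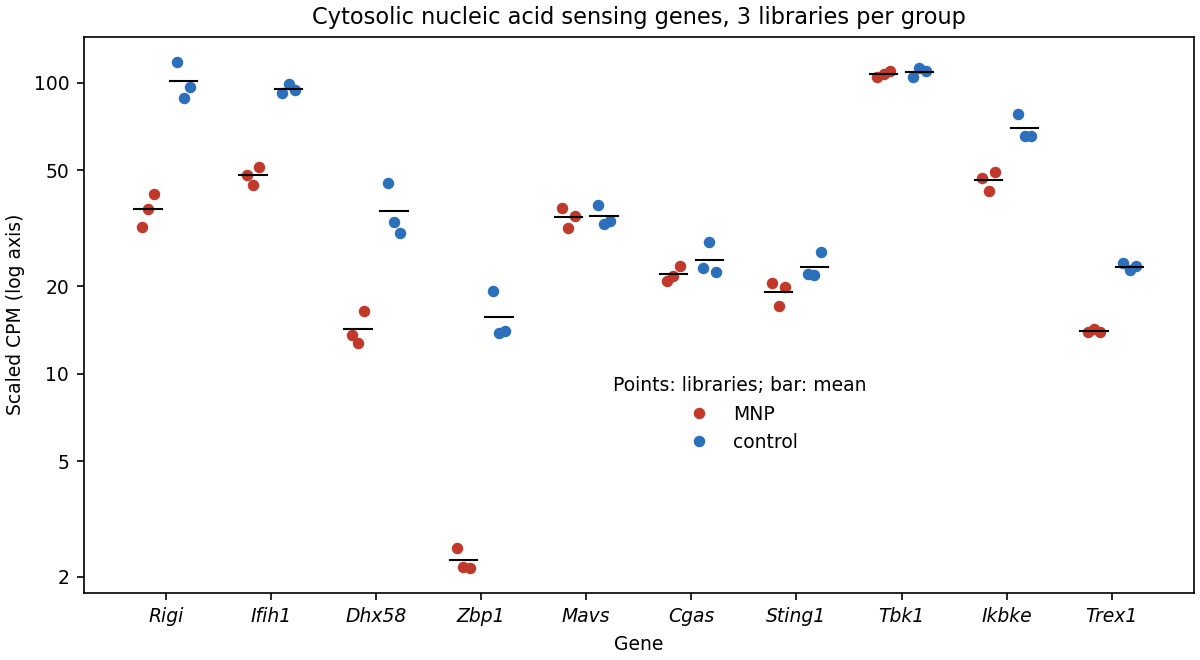
Scaled CPM (log axis) of the 10 sensing genes in each library, with MNP samples left of control samples; points are libraries and bars are means of 3. Rigi, Ifih1, Dhx58, Zbp1, Ikbke and Trex1 have all MNP points below all control points, while those of Mavs, Cgas and Tbk1 overlap and those of Sting1 lie close together.

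Promoter sequence was searched but is not shown for Ikbke and Trex1, which also fell, and for Cgas, which did not pass. It is shown for 4 genes, the RNA sensors Rigi and Ifih1, which fell, and the adaptor Mavs and the kinase Tbk1, which did not pass. Each runs 5′ to 3′ from 250 bases before to 50 bases after the annotated start, from RefSeq on GRCm38.p6, which is older than the GRCm39 build named for the counts. Capitals mark the core of the interferon-stimulated response element, the site bound by interferon-activated transcription factors, searched on both strands as GAAA, any 2 bases and GAAA again. The windows are chr4:40239776-40240075 (minus strand) for Rigi, which the table lists as Ddx58, chr2:62646206-62646505 (minus strand) for Ifih1, chr2:131233813-131234112 (plus strand) for Mavs and chr10:121586745-121587044 (minus strand) for Tbk1.
Rigi: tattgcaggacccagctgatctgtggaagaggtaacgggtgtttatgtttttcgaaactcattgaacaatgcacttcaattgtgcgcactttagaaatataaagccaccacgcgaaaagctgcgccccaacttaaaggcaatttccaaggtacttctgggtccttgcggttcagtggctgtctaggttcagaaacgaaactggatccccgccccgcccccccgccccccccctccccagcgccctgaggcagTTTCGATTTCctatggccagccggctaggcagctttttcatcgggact
Ifih1: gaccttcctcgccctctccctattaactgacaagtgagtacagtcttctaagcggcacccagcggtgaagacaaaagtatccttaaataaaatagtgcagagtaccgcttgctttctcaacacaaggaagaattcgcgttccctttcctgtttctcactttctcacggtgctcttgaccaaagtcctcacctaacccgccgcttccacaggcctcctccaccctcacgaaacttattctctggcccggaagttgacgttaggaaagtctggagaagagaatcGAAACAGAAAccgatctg
Mavs: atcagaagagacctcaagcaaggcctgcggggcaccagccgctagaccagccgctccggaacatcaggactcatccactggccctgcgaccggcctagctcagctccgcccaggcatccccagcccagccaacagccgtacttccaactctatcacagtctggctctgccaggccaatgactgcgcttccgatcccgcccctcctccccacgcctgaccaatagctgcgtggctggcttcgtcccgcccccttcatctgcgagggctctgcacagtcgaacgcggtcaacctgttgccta
Tbk1: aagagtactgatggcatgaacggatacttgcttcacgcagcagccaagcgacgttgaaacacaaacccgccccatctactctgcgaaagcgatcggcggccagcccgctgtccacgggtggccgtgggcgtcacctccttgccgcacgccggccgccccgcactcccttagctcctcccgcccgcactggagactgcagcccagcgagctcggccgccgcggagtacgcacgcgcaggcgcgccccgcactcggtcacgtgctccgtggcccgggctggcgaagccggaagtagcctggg

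The core was found in 2 of the 7 genes with a promoter in the table, Rigi and Ifih1. In Rigi it read TTTCGATTTC, on the opposite strand, at bases 3 to 12 from the start. In Ifih1 it read GAAACAGAAA, on the gene's own strand, at bases 33 to 42. No match lay in the windows of Ikbke and Trex1, which also fell, or of Mavs, Cgas and Tbk1, which did not pass. This says only that these letters are not there. Zbp1 and Dhx58, which fell, and Sting1 had no promoter to search. Of the 32851 promoter windows of this length, 3.44% held the core, and of their 27025 genes 3.99% held it in any window. By call, it was in 10.6% of the 829 genes with a promoter that were lower in MNP samples, in 2.71% of the 886 that were higher and in 3.46% of the 8150 that were not called. The shorter core TTCNNNGAA of the gamma-activated sequence, the same on both strands, was in 8.3% of windows. By gene it was in 9.55% of all genes with a window and in 0 of the 7 genes. A match is a description of the letters, and binding was not measured.

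The RIG-I-like receptors, the family of RNA helicases that sense foreign RNA, fell together. Rigi, which recognises short RNA with triphosphate ends, had 32.0, 36.8 and 41.4 scaled CPM in MNP samples 1 to 3, against 118, 88.9 and 97.0 in controls 1 to 3. The groups lay far apart. The highest MNP sample was under the lowest control for 7 of the 10 genes, including Sting1 by a narrow margin, and for 17.4% of tested genes. The fall of Rigi was 2.76-fold (edgeR adjusted p = 7.75e-07), a log2 fold change of -1.46 ± 0.11 SE.

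Ifih1, which recognises long double-stranded RNA, had 48.3, 44.6 and 51.4 scaled CPM in MNP samples and 92.0, 99.2 and 94.7 in controls. Both groups were tight, with coefficients of variation of 7.06% and 3.81%, and did not overlap. The fall was 1.98-fold (edgeR adjusted p = 4.45e-07), a log2 fold change of -0.99 ± 0.07 SE. Dhx58 encodes LGP2, which lacks the signalling domains of the other members and modulates them, and had 13.5, 12.8 and 16.4 scaled CPM in MNP samples, against 45.3, 33.3 and 30.4 in controls. Its controls spread widely, with control 1 the highest and a coefficient of variation of 21.8%, but none came near the MNP samples. Dhx58 fell 2.55-fold (edgeR adjusted p = 2.05e-05), a log2 fold change of -1.35 ± 0.14 SE. The antisense gene Dhx58os shares 5.85% of the exon bases of Dhx58 in an older annotation. The counts list no gene under that symbol, and no strand setting is stated for them.

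Zbp1, a sensor of Z-form nucleic acid that can start necroptosis, had the largest change of the 10. It had 2.51, 2.16 and 2.15 scaled CPM in MNP samples (52, 48 and 45 counts) and 19.3, 13.7 and 14.0 in controls (403, 316 and 330 counts). All MNP samples lay at a near-equal low level, while control 1 stood above the other controls. The fall was 6.87-fold (edgeR adjusted p = 1.47e-07), a log2 fold change of -2.78 ± 0.18 SE, which left 14.5% of the control level and placed Zbp1 at rank 23 of 12893 genes from the most lowered. In the same order Rigi stood at rank 227, Dhx58 at 282, Ifih1 at 501, Trex1 at 766 and Ikbke at 1015.

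The adaptor Mavs, which relays the signal of RIG-I and MDA5 from mitochondria, had 37.2, 31.6 and 34.7 scaled CPM in MNP samples and 38.0, 32.7 and 33.6 in controls. The values of the groups interleaved. The log2 fold change was -0.01 ± 0.09 SE with a 95% interval of -0.21 to 0.18 (edgeR adjusted p = 0.952), so that a fall as large as that of Rigi, Ifih1 or Dhx58 lay outside the interval. The estimate turned positive without MNP sample 2 (0.05) or control 1 (0.06), with no filter and with DESeq2.

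On the DNA side, neither the sensor Cgas nor the adaptor Sting1 passed, while the nuclease Trex1, described below, fell. Cgas, the cyclic GMP-AMP synthase, had 20.9, 21.6 and 23.5 scaled CPM in MNP samples and 23.1, 28.3 and 22.4 in controls. The groups overlapped, and control 2 stood above the other 5 libraries. Its log2 fold change was -0.16 ± 0.11 SE with a 95% interval of -0.39 to 0.07 (edgeR adjusted p = 0.338), and -0.04 without control 2. Cgas shares 4.92% of its exon bases with the pseudogene Gm8093 on the other strand, a symbol that the counts do not list.

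Sting1, the receptor for the cyclic dinucleotide, had 20.4, 17.1 and 19.8 scaled CPM in MNP samples, against 21.9, 21.9 and 26.2 in controls. The groups did not overlap, but the highest MNP sample lay close under the lowest controls. The log2 fold change was -0.29 ± 0.11 SE with a 95% interval of -0.52 to -0.06 (unadjusted p = 0.0178, edgeR adjusted p = 0.0823). With library totals alone the change passed (-0.38, edgeR adjusted p = 0.0217), and it did not in the other 13 alternatives (adjusted p up to 0.308).

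The kinase pair moved unequally. Tbk1, the kinase present in most cells, had 105, 107 and 110 scaled CPM in MNP samples and 105, 113 and 110 in controls. The groups overlapped within a narrow range, and the log2 fold change was -0.02 ± 0.06 SE with a 95% interval of -0.15 to 0.10 (edgeR adjusted p = 0.805). Ikbke, its inducible relative, had 47.0, 42.5 and 49.4 scaled CPM in MNP samples and 78.4, 65.8 and 65.4 in controls. The groups did not overlap, control 1 was the highest, and Ikbke fell 1.51-fold (edgeR adjusted p = 0.000317), a log2 fold change of -0.59 ± 0.09 SE. Ikbke shares 0.604% and 1.21% of its exon bases with the antisense genes Gm28913 and Gm28914. Gm28913 stood at 0.896 ± 0.342 scaled CPM in MNP samples and 0.836 ± 0.488 in controls, and the counts do not list Gm28914.

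Trex1, the exonuclease that clears DNA from the cytosol and so limits cGAS activity, had 13.9, 14.3 and 13.9 scaled CPM in MNP samples and 23.9, 22.7 and 23.4 in controls. Its libraries agreed more closely within each group than those of any other of the 10 genes (coefficients of variation 1.57% and 2.73%). Trex1 fell 1.66-fold (edgeR adjusted p = 7.39e-05), a log2 fold change of -0.73 ± 0.09 SE. Its gene lies within the span of Atrip on the same strand, with 0 shared exon bases. Atrip, a checkpoint kinase partner, had 9.13 ± 1.12 scaled CPM in MNP samples and 6.75 ± 1.09 in controls (log2 fold change 0.43 ± 0.16 SE, edgeR adjusted p = 0.0828).

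**Figure D2:**
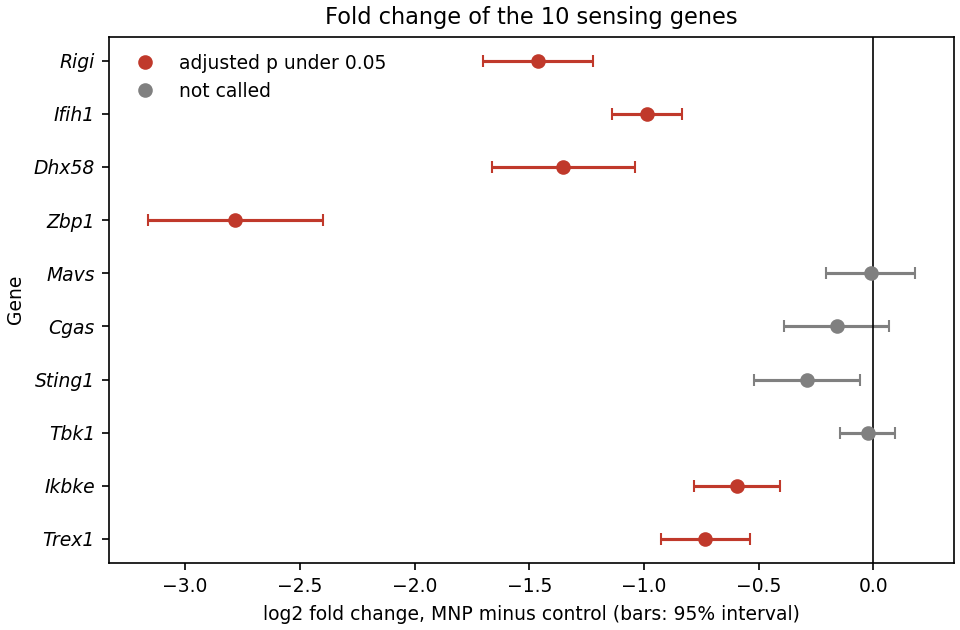
Log2 fold change, MNP minus control, of each of the 10 genes with its 95% interval from the edgeR fit; red marks an adjusted p under 0.05. Zbp1 lies at -2.78, the other called genes between -1.46 and -0.59, and the intervals of Mavs, Cgas and Tbk1 span 0.

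All 6 of these falls passed in each of the 14 other fits, which were other scalings, filters and tools, a replicate block and the omission of each library. In those fits the log2 fold change ran from -1.55 to -1.33 for Rigi, from -1.08 to -0.93 for Ifih1, from -1.46 to -1.16 for Dhx58 and from -2.87 to -2.60 for Zbp1. It ran from -0.68 to -0.50 for Ikbke and from -0.82 to -0.70 for Trex1. Control 1 was the highest control for 6 of the 10 genes, and MNP sample 3 the highest MNP sample for 6.

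Levels of different genes were compared per kilobase of annotated exon, in scaled CPM. In MNP samples Tbk1 stood highest (35.5), followed by Ikbke (14.0), Trex1 (12.2) and Mavs (11.1). Below them lay Rigi (9.48), Ifih1 (8.79), Sting1 (8.31), Dhx58 (5.90), Cgas (5.39) and Zbp1 (1.05). The ranges over libraries of Mavs and Rigi, Rigi and Ifih1, Rigi and Sting1, Ifih1 and Sting1, and Dhx58 and Cgas overlapped. In controls Tbk1 (36.1) also stood highest, but Rigi (26.2) came next, followed by Ikbke (21.1), Trex1 (20.3), Ifih1 (17.4) and Dhx58 (15.1). Mavs (11.2), Sting1 (10.1), Zbp1 (7.25) and Cgas (6.02) came last. There the ranges of Rigi and Ikbke, Ikbke and Trex1, Ifih1 and Dhx58, Mavs and Sting1, and Zbp1 and Cgas overlapped. Mavs thus stood above Rigi, Ifih1 and Dhx58 in mean level in MNP samples and below all of them in controls. Exon lengths came from GENCODE M21, an annotation of an older build, so these levels are approximate.

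**Figure D3:**
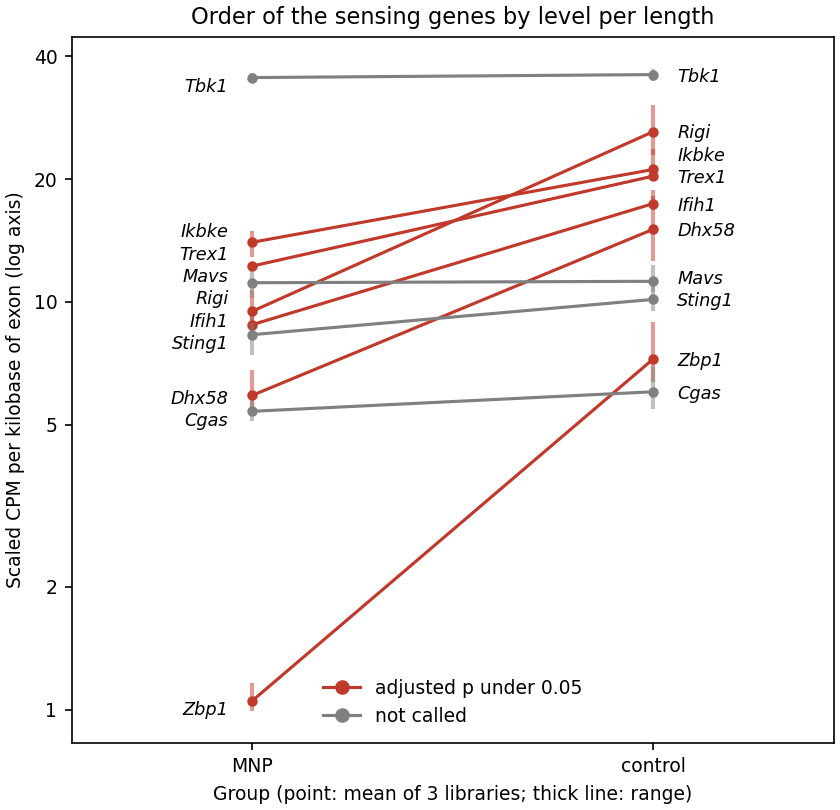
Mean scaled CPM per kilobase of exon (log axis) of each gene in MNP samples (left) and control samples (right), with the range over 3 libraries as a thick line; red marks genes with an adjusted p under 0.05. Tbk1 stays on top at 35.5 and 36.1, while Rigi stands at 9.48 in MNP samples and 26.2 in controls and Zbp1 at 1.05 and 7.25.

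Ratios of counts within a library do not depend on scaling between libraries, and 6 pairs of genes were set against each other in this way. The ratio of Ikbke to Tbk1 was 0.449, 0.398 and 0.448 in MNP samples and 0.745, 0.584 and 0.598 in controls, with no overlap (difference of log2 ratios -0.57). Zbp1 to Mavs was 0.0676, 0.0686 and 0.0619 in MNP samples and 0.508, 0.421 and 0.417 in controls (difference -2.75), and Trex1 to Cgas 0.667, 0.662 and 0.592 against 1.04, 0.800 and 1.05 (difference -0.58). Among the helicases, Ifih1 to Rigi was higher in every MNP sample, at 1.51, 1.21 and 1.24 against 0.779, 1.12 and 0.976 in controls (difference 0.47). For each of these 4 ratios the exact two-sided permutation test gave p = 0.1, the smallest that 3 samples against 3 allow, and adjusted p = 0.15 over the 6 ratios. The groups overlapped for Dhx58 to Rigi (0.423, 0.347 and 0.396 in MNP samples, 0.384, 0.374 and 0.314 in controls, exact permutation p = 0.4) and for Cgas to Sting1 (1.02, 1.26 and 1.19 in MNP samples, 1.05, 1.29 and 0.854 in controls, exact permutation p = 0.7). The corresponding adjusted p-values were 0.48 for Dhx58 to Rigi and 0.7 for Cgas to Sting1.

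**Figure D4:**
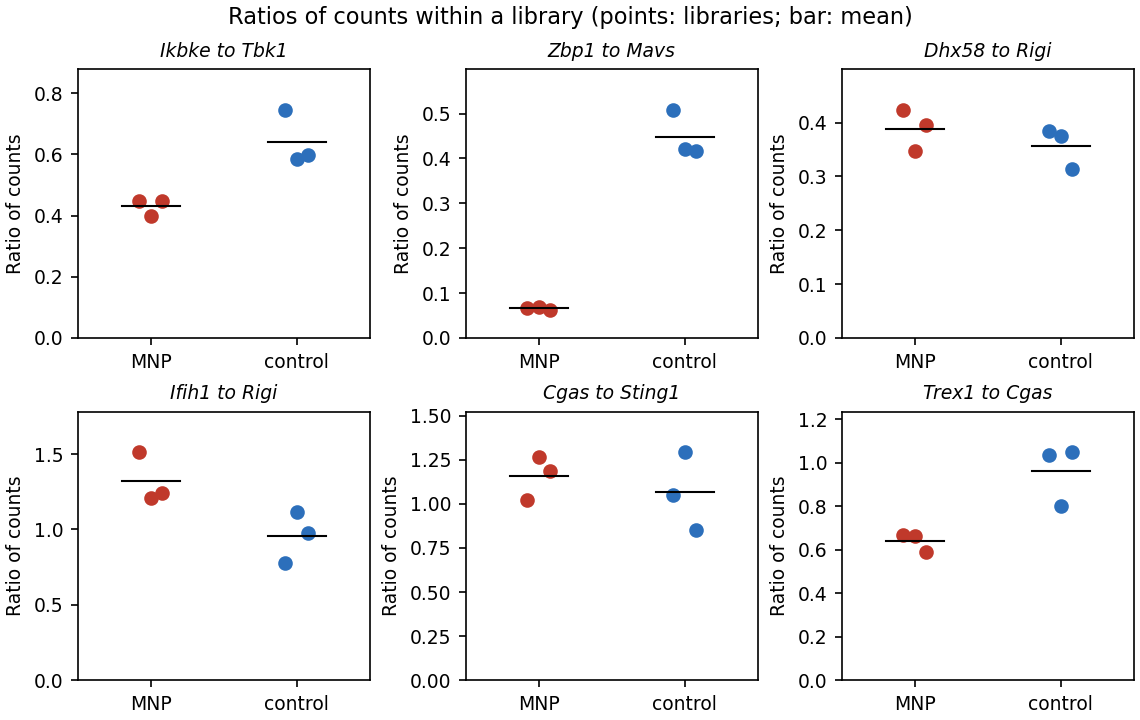
Ratio of counts of gene pairs within each library, MNP left of control; points are libraries, bars are means of 3, and each axis starts at 0. Ikbke to Tbk1, Zbp1 to Mavs and Trex1 to Cgas are lower and Ifih1 to Rigi is higher in all MNP samples, while Dhx58 to Rigi and Cgas to Sting1 overlap.

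The surrounding pathway was described with 7 lists that hold 129 further genes, of which 105 were tested, 18 fell and 9 rose (median log2 fold change -0.06). Fadd and Ripk1 stand in 2 of the lists and were counted once in that total. The falls were 17.1% of the 105. Over all tested genes 8.35% were lower and 9.11% higher, and each list below stands against these shares. The lists themselves were not tested. Among 21 cofactors and regulators of RNA sensing, 3 fell and 0 rose (median 0.01). Ddx60, an interferon-induced helicase linked to RIG-I signalling, had 10.3 ± 0.289 scaled CPM in MNP samples and 27.3 ± 4.61 in controls (SD, n = 3 each; log2 fold change -1.41, edgeR adjusted p = 3.59e-06). Eif2ak2, which encodes the RNA-activated kinase PKR, fell by 0.66 on the log2 scale (edgeR adjusted p = 2.60e-05). Cyld, a deubiquitinase that restrains RIG-I, fell by 0.22 (edgeR adjusted p = 0.0328), but did not pass in 7 of the 14 other fits. Among these were fits without MNP samples 1, 2 or 3 or without controls 2 or 3, with log2 fold changes of -0.25 to -0.18 (adjusted p from 0.0626 to 0.138). Trim25, a ubiquitin ligase that activates RIG-I, did not pass at 170 ± 2.77 scaled CPM in MNP samples and 159 ± 15.3 in controls (edgeR adjusted p = 0.337). In this list 2 genes rose without control 1, and 1 rose with no filter, DESeq2 or limma-voom.

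Of 26 tested genes of DNA sensing and cyclic dinucleotide handling, 2 fell and 4 rose (median 0.04). Usp18, a brake on interferon receptor signalling that is also linked to STING, had 5.68 ± 1.22 scaled CPM in MNP samples and 15.7 ± 2.04 in controls (SD, n = 3 each; log2 fold change -1.46, edgeR adjusted p = 2.70e-05). Enpp1, the extracellular enzyme that degrades the cyclic dinucleotide, fell by 0.40 on the log2 scale (edgeR adjusted p = 0.0102). It did not pass without MNP sample 1 or control 3 (-0.34 and -0.33, adjusted p = 0.0601 and 0.0523), and without control 3 the list had 1 fall. Abcc1, an exporter of glutathione that can carry the dinucleotide out of cells, rose by 1.24 (387 ± 24.2 scaled CPM in MNP samples, 164 ± 10.2 in controls, edgeR adjusted p = 3.07e-08). Nlrc3, a negative regulator of STING, rose by 0.62 (edgeR adjusted p = 0.00171), and Surf4, which returns STING from the Golgi, by 0.29 (edgeR adjusted p = 0.00414). Npc1, the lysosomal cholesterol exporter, rose by 0.20 (edgeR adjusted p = 0.0211), but did not pass with library totals alone (adjusted p = 0.149) or without any 1 of the MNP samples (adjusted p up to 0.0794).

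Among 17 tested nucleases and editors that act on the cell's own nucleic acid, as Trex1 does, 4 fell and 1 rose (median -0.07). Adar, which edits double-stranded RNA and so masks it from MDA5, had 70.3 ± 5.11 scaled CPM in MNP samples and 101 ± 14.3 in controls (SD, n = 3 each; log2 fold change -0.52, edgeR adjusted p = 0.00140). Rnaset2a fell by 0.40 (edgeR adjusted p = 0.00178), but it has a near-identical copy, Rnaset2b, so its separate count is uncertain. Rnaset2b did not pass (log2 fold change 0.0005, edgeR adjusted p = 0.998). Samhd1, which depletes nucleotides, fell by 0.26 and Pnpt1, a mitochondrial RNA exonuclease, by 0.30 (edgeR adjusted p = 0.0181 and 0.0192). Dnase2a, the lysosomal DNase, rose by 0.21 (edgeR adjusted p = 0.0218). Samhd1 did not pass without MNP samples 1 or 2 (adjusted p = 0.0768 and 0.0995), Pnpt1 without MNP samples 1 or 2 or control 2 (0.0669 to 0.0871), and Dnase2a without MNP samples 1 or 3 or controls 2 or 3 (0.0523 to 0.0888). Dnase2a also did not pass with library totals alone (0.12, adjusted p = 0.147). The list had 2 falls without MNP sample 1 or 2, and 0 rises in each of the fits where Dnase2a did not pass. The RNase H2 subunits Rnaseh2a, Rnaseh2b and Rnaseh2c did not pass (log2 fold changes 0.11, -0.19 and -0.20).

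Of 20 kinase scaffolds and transcription factors below the adaptors, 3 fell and 2 rose (median -0.07). Irf7, the interferon-induced factor that TBK1 and IKKε phosphorylate, had 8.66 ± 0.789 scaled CPM in MNP samples and 30.0 ± 6.47 in controls (SD, n = 3 each; log2 fold change -1.79, edgeR adjusted p = 1.55e-06). Irf3, the constitutive factor of the same pathway, had 11.4 ± 1.32 in MNP samples and 12.4 ± 1.75 in controls and did not pass (edgeR adjusted p = 0.625). Optn, which recruits TBK1, fell by 0.54 and Nfkb1, an NF-kB subunit, by 0.29 on the log2 scale (edgeR adjusted p = 0.00106 and 0.00528). Ikbkg, the NEMO scaffold, rose by 0.46 (edgeR adjusted p = 0.000140) and Irf5 by 0.26 (edgeR adjusted p = 0.0107). Irf5 did not pass with library totals alone or without MNP sample 3 or control 2 (0.23 and 0.22, adjusted p = 0.0584 and 0.0575), and the list then had 1 rise. The TBK1 partners Tank, Tbkbp1 and Azi2 and the MAVS partners Traf2, Traf3 and Traf6 did not pass.

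Of 8 partners of ZBP1 in cell death, 2 fell and 0 rose (median -0.07). Ripk3, the kinase that ZBP1 recruits for necroptosis, had 6.86 ± 1.10 scaled CPM in MNP samples and 11.1 ± 0.600 in controls (SD, n = 3 each; log2 fold change -0.70, edgeR adjusted p = 0.00383). Nlrp3, the inflammasome sensor, fell by 0.36 (edgeR adjusted p = 0.00239). Mlkl, the pore-forming executioner, did not pass at 33.7 ± 1.84 scaled CPM in MNP samples and 31.0 ± 2.41 in controls (edgeR adjusted p = 0.379).

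Sensing of nucleic acid from endosomes uses other receptors, and of 15 such genes 4 fell and 2 rose (median -0.15). Tlr3, Tlr7 and Tlr8, receptors for RNA, fell by 0.62, 0.61 and 0.43 on the log2 scale (edgeR adjusted p = 0.000728, 0.000250 and 0.000228). Tlr13, a receptor for bacterial RNA, rose by 0.50, with 747 ± 45.3 scaled CPM in MNP samples and 530 ± 14.5 in controls (SD, n = 3 each; edgeR adjusted p = 5.38e-05). Irak1, a kinase below several of these receptors, rose by 0.30 (edgeR adjusted p = 0.00281). The fourth fall was Tasl, an adaptor for IRF5, whose groups overlapped and which was named after its values were seen (-0.37, edgeR adjusted p = 0.0456). Its call was lost with DESeq2 and without MNP sample 1 or 2 or control 2 or 3, where 3 genes of the list fell. Tlr9, the receptor for DNA, did not pass (-0.15, edgeR adjusted p = 0.384).

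**Figure D5:**
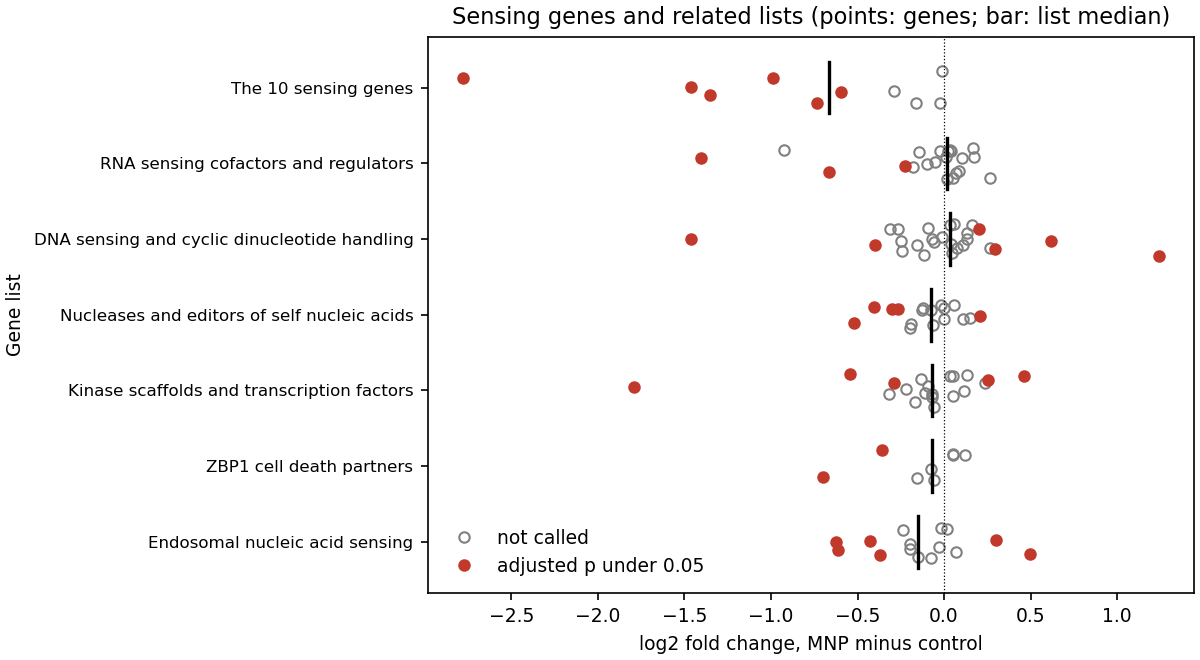
Log2 fold change, MNP minus control, of each tested gene in the sensing set and in 6 related lists; filled red points have an adjusted p under 0.05 and black bars are medians. The sensing set has its median at -0.66, and the medians of the other lists lie between -0.15 and 0.04. Set and lists were chosen with earlier results of these data known.

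The interferon genes that this pathway controls were close to the counting limit, where 3 counts are worth 0.127 to 0.145 scaled CPM. None of 20 type I and type III interferon genes passed the filter on low counts. Summed over the 20 genes, MNP samples 1 to 3 had 1, 3 and 3 counts, and controls 1 to 3 had 11, 13 and 4. Over each group, 7 counts fell on 2 genes in MNP samples and 28 on 10 genes in controls, with Ifnz holding 6 in each group. Ifnb1, the interferon beta gene, had 0 counts in all MNP samples and 1 count in all controls together. The interferon alpha genes resemble each other closely, and how reads were split among them is uncertain. As given above, more genes of any kind had a count in controls.

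Markers of some other cell types also moved. Of 8 markers of plasmacytoid dendritic cells, cells known for high levels of interferon-pathway genes, all 3 that were tested fell, and the list summed to 61.4 to 65.2 scaled CPM in MNP samples and 75.3 to 79.2 in controls. Most of that sum was Tcf4 (62.3 and 72.9 scaled CPM in MNP and control samples), while Siglech stood at 0.359 and 1.80 and Ccr9 at 0.153 and 0.912, and Klk1 and Ly6d were at 0 in every library. Of 9 neutrophil markers, 8 were tested and 5 fell, with sums of 133 to 153 scaled CPM in MNP samples and 183 to 272 in controls. Of 6 tested markers of conventional dendritic cells, 1 rose and 0 fell (67.9 to 77.3 scaled CPM in MNP samples, 49.0 to 59.0 in controls), the rise being Cd24a. Cd24a made up nearly all of that sum (68.5 scaled CPM in MNP samples, 48.2 in controls), and the other 5 tested markers did not pass, with log2 fold changes from -1.52 for Flt3 to -0.10 for Fscn1. Of the mast cell and basophil list the 1 tested marker, Kit, rose. The list summed to 16.0 to 19.7 scaled CPM in MNP samples and 8.63 to 11.9 in controls. Kit made up nearly all of that sum (16.8 scaled CPM in MNP samples, 9.90 in controls). The untested Cpa3 (0.203 in MNP samples, 0.414 in controls) and Ms4a2 (0.2015 and 0.3048) had lower means in MNP samples. Mcpt8 (0.124 and 0.0435) and Fcer1a (0.0478 and 0.0145), also untested, had higher means there. Lists for B cells, T and NK cells, fibroblasts and erythroid cells summed to at most 2.26 scaled CPM in any library, with Cd3e, Ncr1 and Gzma of the T and NK list at 0. The counts held 5 of the 6 B cell markers, without Ighm, and 7 of the 8 T and NK markers, without Trac. The part of these cells in the falls of the sensing genes was not tested.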

How the data were processed

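RNA of 3 MNP and 3 control samples was sequenced from CORALL RNA-seq V2 libraries, per the labels' protocols. Each deposited file gives the authors' counts of 1 library as whole numbers by gene symbol. GRCm39 is the build in the submitters' processing notes, which list the tools GATK, Salmon, STAR and fastp without saying what each did. The annotation, strand setting and use of molecular identifiers were not given in the sources used.

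Titles gave the group and number of each sample. Genes were tested with edgeR 4.0.16 (R 4.3.3) on the deposited counts, with TMM factors and the default filter, over 12893 genes. Each SE was obtained as the size of the log2 fold change divided by the root of its F statistic. Pairs of replicates differed by more than sampling noise (chi-square per degree of freedom 6.65 to 17.6). The edgeR step was also run on counts simulated with the spread estimated from these libraries, and the other steps were not simulated. The promoter table matched 7 of the 10 genes. Log2 ratios and their tests used counts plus 0.5, while the ratios printed for each library are of the counts as deposited.

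Named genes are the 10 members and, of each further list, up to 6 called genes with the smallest p and no overlap between groups. A few more (Trim25, Irf3, Mlkl, Tlr9, the RNase H2 subunits, TBK1 and MAVS partners, Tasl and single cell type markers) were named after their values were seen. The members and lists were chosen with earlier results of these data known. Alternatives were other scalings, filters, thresholds, DESeq2 1.42.0, limma-voom (limma 3.58.1), a replicate block and the omission of each library.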

Additional observations from a re-analysis of the deposited data

How the results depend on the processing

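The count of sensing genes that fell was 6 in all alternatives except library totals alone, where it was 7 because Sting1 passed (-0.38), and 0 rose in each. For Mavs the log2 fold change was positive with no filter (0.023) and with DESeq2 (0.0014), and ran from -0.062 to 0.064 when each library was left out. For Tbk1 it was positive with no filter (0.0081) and ran from -0.044 to 0.0020 when each library was left out. Neither passed in any of these fits, and the cause was not tested. Over all genes, library totals alone gave 757 higher and 1941 lower, an adjusted p under 0.01 gave 685 and 587, and a fold change of at least 1.5 gave 383 and 505. Omitting 1 library gave 793 to 1241 higher and 672 to 1004 lower, with the fewest lower calls (672) without MNP sample 2. Of the 105 further pathway genes tested, 28 fell with library totals alone, and 7 fell and 2 rose by at least 1.5-fold. With library totals alone 5 RNA cofactors, 4 DNA sensing genes, 5 scaffolds and factors and 7 endosomal genes fell. The difference of log2 ratios of Cgas to Sting1 ran from -0.015 (without control 3) to 0.28 when each library was left out. No other ratio changed sign.

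Deviations of samples with the same replicate number correlated at 0.0867, 0.0282 and -0.0218, and not every sample correlated best with its own number. These values gave no clear sign of pairing by number. With 3 samples a group they cannot exclude it, and the labels do not say. A replicate block gave 1432 higher and 1254 lower genes over all and called the same number of sensing genes, 6. With the block 1 RNA cofactor rose and 4 DNA sensing genes fell. At this depth the interferon genes could not be compared.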
